A study of Homo sapiens with 12 samples.

Results

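The regions described here carried an m6A peak in every control library of K1 cells and in no library of the FTO knockdown. They were selected on measured values, namely the presence of a peak in the deposited lists. The peaks of all 6 lists were pooled, intervals that overlapped by at least 1 bp were merged, and a merged region was kept when none of the 3 si-FTO lists and each of the 3 si-NC lists had a peak in it. Of 12995 merged regions, 416 had this pattern, and they lay under 404 gene names. They are called si-NC-only regions below, a name for the pattern in the lists and not for the absence of m6A after knockdown.

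K1 cells are an established line from a papillary thyroid cancer. The experiment had 12 libraries, with 3 m6A IP and 3 input libraries from cells given siRNA against FTO (si-FTO group) and the same numbers from cells given control siRNA (si-NC group). Both groups were transfected, so each result is relative to transfected control cells. Separate cultures are not stated for the replicates, and p-values therefore measure the spread between these libraries alone. In MeRIP-seq, fragments of RNA are pulled down with an antibody against m6A, and peaks are called where reads of the IP exceed those of the input.

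m6A is placed on adenosines of mRNA by a methyltransferase complex built around METTL3 and METTL14, mostly near stop codons and in long internal exons. FTO and ALKBH5 are the known demethylases, and reader proteins of the YTH and IGF2BP families bind the mark and alter the decay, splicing or translation of the transcript. Loss of a demethylase is expected to leave more of the mark on its substrates, and the regions described here are those listed in the control cells alone.

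The study lists a pair of siRNAs against FTO, a gene on chromosome 16, shown here since they separate the groups. The sources used here do not say which of them was given to each si-FTO library.
si-FTO-1: tcaccaaggagactgctattt
si-FTO-2: ctagggttttgcttccagaatt

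A list entry holds a position in hg19, a gene, a fold enrichment of IP over input, and a score, which is -10 times the log10 of the p-value. The lowest score in any list was 50, or a p-value of 1e-05, so a peak just short of that value is missing from its list. Values of different lists are not on one scale, and peaks were therefore ranked by their percentile of fold enrichment within their own list, where 100 is the strongest peak. The si-FTO lists held 7921, 8454 and 8240 peaks, against 8429, 8458 and 8999 in the si-NC lists. The highest serial number in the peak identifiers was 56265 to 57034 in si-FTO and 68972 to 98175 in si-NC, and the median FDR of a list was 41.15% to 47.2% in si-FTO and 47.45% to 99.6% in si-NC. Fewer candidate peaks in the si-FTO libraries moved with the pattern used to choose the regions, and the part of peak calling in it was not tested. Fewer mRNA copies of a gene and less m6A per copy also cannot be told apart from these lists. The depth behind a peak is unknown, as no read counts were analysed here.

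The 416 si-NC-only regions were 3.20% of all merged regions, and their 404 genes were 5.30% of the 7623 genes with a peak in any list. Since the rule chose them, these shares are a description and no test was made. Regions with a peak in all 6 lists numbered 4737, and the mirror pattern, a peak in all 3 si-FTO lists and in no si-NC list, was found in 380 regions. Just outside the rule were 432 regions with a peak in 1 si-FTO list and all 3 si-NC lists, and 622 regions with no si-FTO peak and a peak in 2 of the 3 si-NC lists. Another 1500 regions had a peak in 1 si-NC list and no other. A region present in a single list of one group was thus more frequent than one present in all 3.

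**Figure D1:**
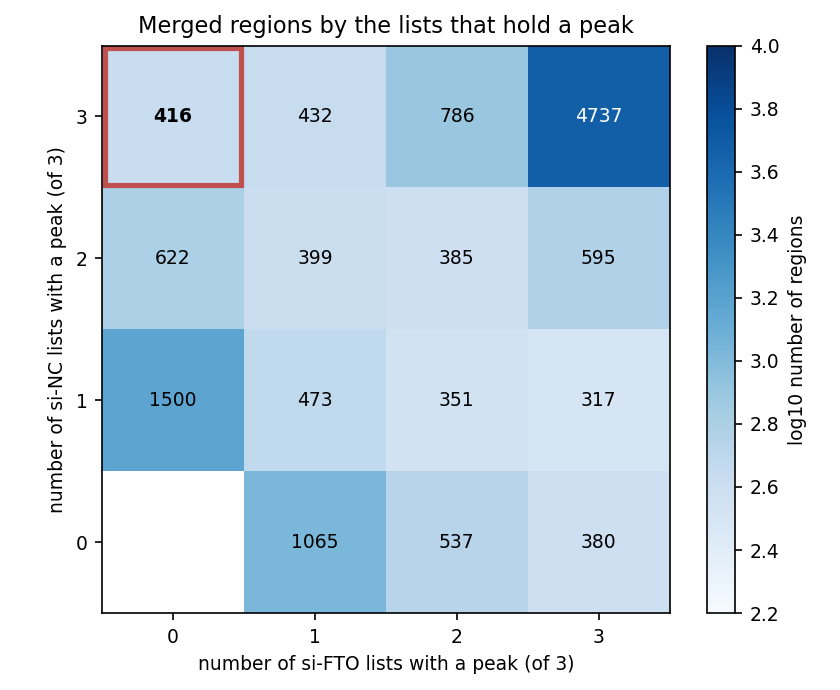
Number of merged regions by how many si-FTO lists (horizontal) and si-NC lists (vertical) held a peak in them, with color showing the log10 number. The boxed square holds the 416 si-NC-only regions, beside 4737 regions in all 6 lists and 380 with the mirror pattern.

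As a group the si-NC-only regions ranked below the regions of all 6 lists, and a small number were strong. For each region the lowest of its 3 within-list percentiles of fold enrichment was taken. The median of this value was 28.6 (quartiles 12.5 and 48.1) over the 416 regions, against 52.3 over the regions in all 6 lists. In 92 regions, or 22.1%, the peak fell below percentile 10 in at least 1 si-NC list, against 9.44% of the regions in all 6 lists. At the upper end 14 regions, or 3.37%, lay at percentile 90 or above in every si-NC list, against 10.9% of the regions in all 6 lists. Just outside the rule the median lowest percentile was 29.6 where 1 si-FTO list also had a peak, and lower, at 20.6, where 2 si-NC lists had a peak and the lowest was taken over those 2. By score the si-NC-only regions ranked lower still, with a median lowest percentile of 16.9, and 209 of them had a score under 100 in at least 1 si-NC list. Their median FDR was 66.8%, 100% and 56.35% in si-NC replicates 1, 2 and 3, where all peaks of those lists had medians of 50.4%, 99.6% and 47.45%.

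The 3 control lists were also set beside each other within each region, each list being on its own scale. The highest fold enrichment was a median 1.27 times the lowest, and at most 4.50 times. The rule required a peak in all 3 lists, and this ratio was not taken over other regions. All 3 lists gave the same start and end in 264 regions (63.5%), and 24 regions shared neither edge. Of the regions in all 6 lists, 68.1% had identical edges in every list. In 3 regions, those of RIN3, SIK1 and PCNXL2, 1 list had 2 peaks, and 1 region at chr10:103347003-103348641 was listed under both DPCD and POLL.

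Length did not set these regions far apart from the rest. The median was 630 bp (quartiles 329 and 1157 bp), against 610 bp over the other 12579 regions and 840 bp over the regions in all 6 lists. There were 12 regions of 3000 bp or more and 88 under 300 bp. The longest was 5079 bp in AFAP1, which encodes a protein that binds actin filaments, at chr4:7760440-7765518, and it was a weak one with fold enrichments of 3.91, 4.53 and 4.28 in the si-NC lists. GPR135 (4578 bp), an orphan receptor, RBM8A (4370 bp), a core part of the exon junction complex, MEF2D (4342 bp), a transcription factor, and C5orf24 (3803 bp) followed. Of these, GPR135 and C5orf24 were the strongest by fold enrichment. GPR135 had 17.1, 12 and 13.8, and its peak was 2449, 2461 and 4578 bp long in si-NC replicates 1, 2 and 3. C5orf24 had 12.02, 11.02 and 11.49, with peaks of 3526, 3803 and 3554 bp in the same replicates. By score both ranked lower, with lowest percentiles of 38.7 for GPR135, in si-NC replicate 3, and 16.4 for C5orf24, in si-NC replicate 2. The shortest regions lay in SPATA20 (200 bp), PLXNA1 (201 bp), a semaphorin co-receptor, ARAF (203 bp), a RAF kinase, and MARK1, ANKS6 and MAEA (204 bp each), and 200 bp was the smallest interval in any list.

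**Figure D2:**
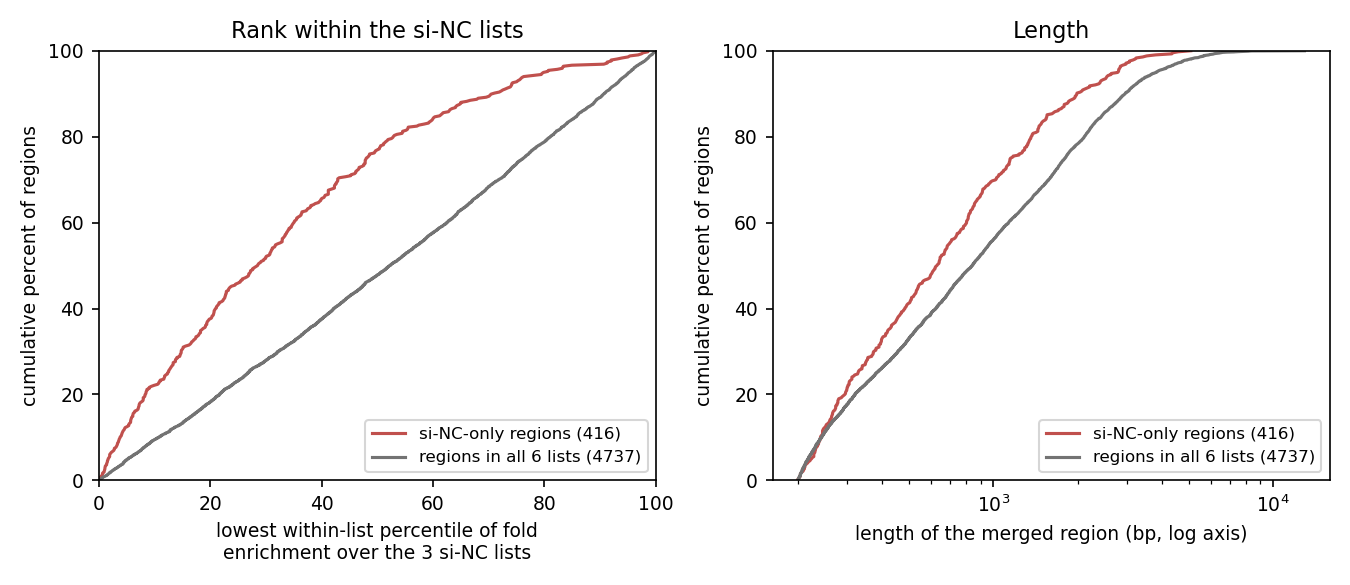
Cumulative percent of regions by the lowest within-list percentile of fold enrichment over the 3 si-NC lists (left) and by length in bp on a log axis (right), for the 416 si-NC-only regions and the 4737 regions in all 6 lists. The si-NC-only curve lies to the left in rank, with medians of 28.6 and 52.3, and less so in length, with medians of 630 and 840 bp.

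The strongest si-NC-only regions lay in genes of unlike function. The first by rank was in GMPR2, a reductase of guanosine monophosphate, at chr14:24702078-24702546, with fold enrichments of 35.6, 36.9 and 31.8 in si-NC replicates 1, 2 and 3. CDH6, a classical cadherin, had rank 3, with 32.3, 37.1 and 24.98 at chr5:31193762-31193993. These regions of GMPR2 and CDH6 were 469 and 232 bp long, had the same edges in each si-NC list, and lay at percentile 97.7 or above in each.

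XYLT2, which starts the sugar chains of proteoglycans, had fold enrichments of 25.2, 25.2 and 27.5 at chr17:48423393-48423636. OAZ2, an antizyme that restrains polyamine synthesis, had 24.5, 23.3 and 25.3 at chr15:64995228-64995480. The region of NRG1, a ligand of ERBB receptors, had 24.1, 19.6 and 22.6 at chr8:32621266-32622558. LHX1, a LIM homeobox transcription factor, spread more widely, with 17.7, 29.8 and 25.3 at chr17:35300049-35301899, and its lowest score percentile was only 13.4.

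Another 5 of the first 12 had fold enrichments between 15.6 and 22.8 in every si-NC list. These were NUTM2A at chr10:88994874-88996665, HIP1R, a clathrin and actin adaptor, at chr12:123341568-123342262, and SEPT11, a septin now named SEPTIN11, at chr4:77951936-77953311. HOMER3, a postsynaptic scaffold, at chr19:19050660-19051113, and EPPK1, an epithelial plakin, at chr8:144941846-144942946, were the others. By score NUTM2A, HOMER3 and EPPK1 ranked lower, with lowest percentiles of 46.9, 45.7 and 53.4, against 80.5 for HIP1R and 93.6 for SEPT11. NUTM2A has near-identical paralogs among which reads could be split, so its values are uncertain. PDCD1LG2, a ligand of the immune checkpoint receptor PDCD1, was among the 14 regions above percentile 90, with 15.3, 15.3 and 15.6 at chr9:5534745-5535050.

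At the other end of the ranking the fold enrichment was below 4 in every si-NC list. COL5A1, a fibrillar collagen chain, had 3.42, 2.63 and 3.02 at chr9:137622082-137622321. C2CD3, a centriole protein, had 3.36, 2.65 and 3.70 at chr11:73814176-73814670. TUFM, the mitochondrial elongation factor Tu, had 2.71, 3.52 and 2.90 at chr16:28853732-28854469. A difference of listing in such regions is near the limit of what the lists hold.

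**Figure D3:**
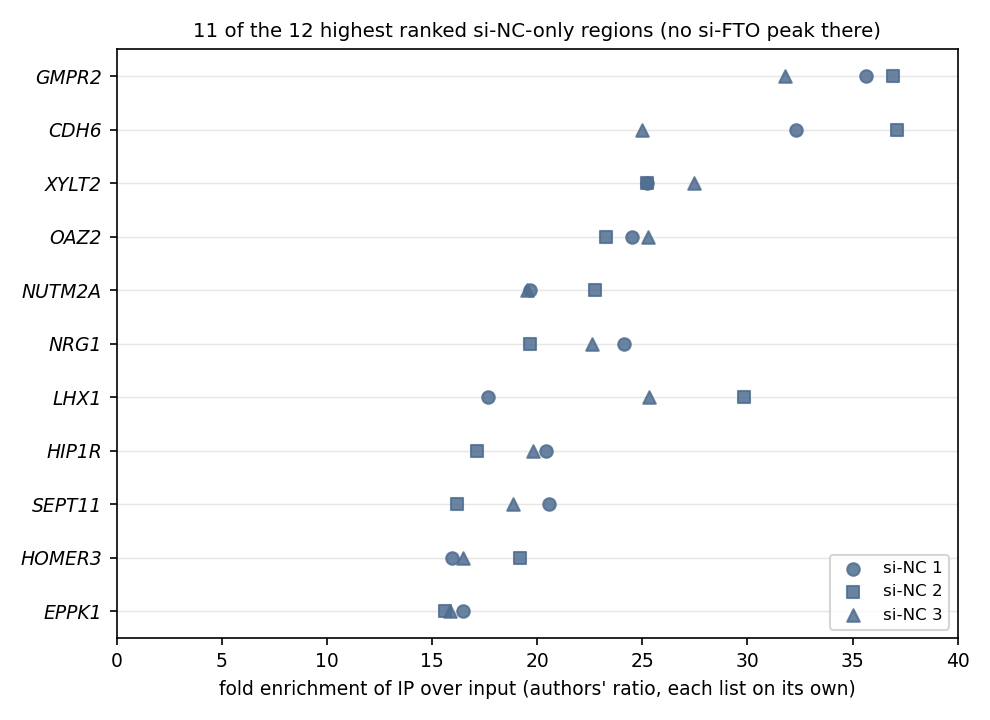
Fold enrichment of IP over input, the authors' ratio, for 11 of the 12 highest ranked si-NC-only regions, with 1 marker shape per si-NC replicate. All values lie between 15.6 and 37.1, and no si-FTO list had a peak in these regions.

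Many of the genes had si-FTO peaks at other places. Of the 404 genes, 207 (51.2%) had a si-FTO peak at another place, and 197 had none. The share describes the genes that the rule chose and does not measure a spread between libraries. It was not taken over all genes with a peak, so it is not called high or low. The peak elsewhere was in all 3 si-FTO lists for 147 genes, in 2 lists for 30 and in 1 list for 30. In 129 genes it included a region of all 6 lists, in 13 genes a region with the mirror pattern, and 71 of the 207 genes had only regions of other patterns. Among the 7219 other genes with a peak, 3416 had a region of all 6 lists. In the mirror direction, 195 of the 353 genes with a peak region in all si-FTO lists and no si-NC list, or 55.2%, had a si-NC peak elsewhere. For 152 of the 404 genes no region other than si-NC-only ones was listed under the name. Counted by gene rather than by place, 210 genes were in all si-NC lists and in no si-FTO list, and 196 of them had a si-NC-only region.

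KMT2D, a histone H3 methyltransferase, had 2 si-NC-only regions side by side and kept the remainder. The regions at chr12:49412758-49415655 (fold enrichments of 6.11, 7.14 and 6.44) and chr12:49419965-49421105 (4.35, 3.84 and 5.53) were both moderate or weak. In the region at chr12:49424958-49427747 the within-list percentile was 87.7, 92.1 and 86.3 in the si-FTO lists, against 93.2, 82.6 and 75.8 in the si-NC lists, so the groups overlapped there. A further pair of KMT2D regions was listed in si-FTO replicates 2 and 3 and in every si-NC list.

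In GMPR2 and XYLT2 a strong peak appeared at another place in 1 si-FTO library. GMPR2 had a fold enrichment of 33.8 at chr14:24707452-24708447 in si-FTO replicate 2, at percentile 98.8 of that list and 4905 bp from the si-NC-only region. XYLT2 had 39.4 at chr17:48434527-48435125 in si-FTO replicate 3, at percentile 98.9 and 10890 bp away. No other list had a peak at either place, so neither was seen in a second library. NRG1 kept a peak of fold 5.23 in si-FTO replicate 2 at a place where si-NC replicate 2 had 5.10. By contrast CDH6, OAZ2, NUTM2A, LHX1 and SEPT11 had no si-FTO peak anywhere.

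**Figure D4:**
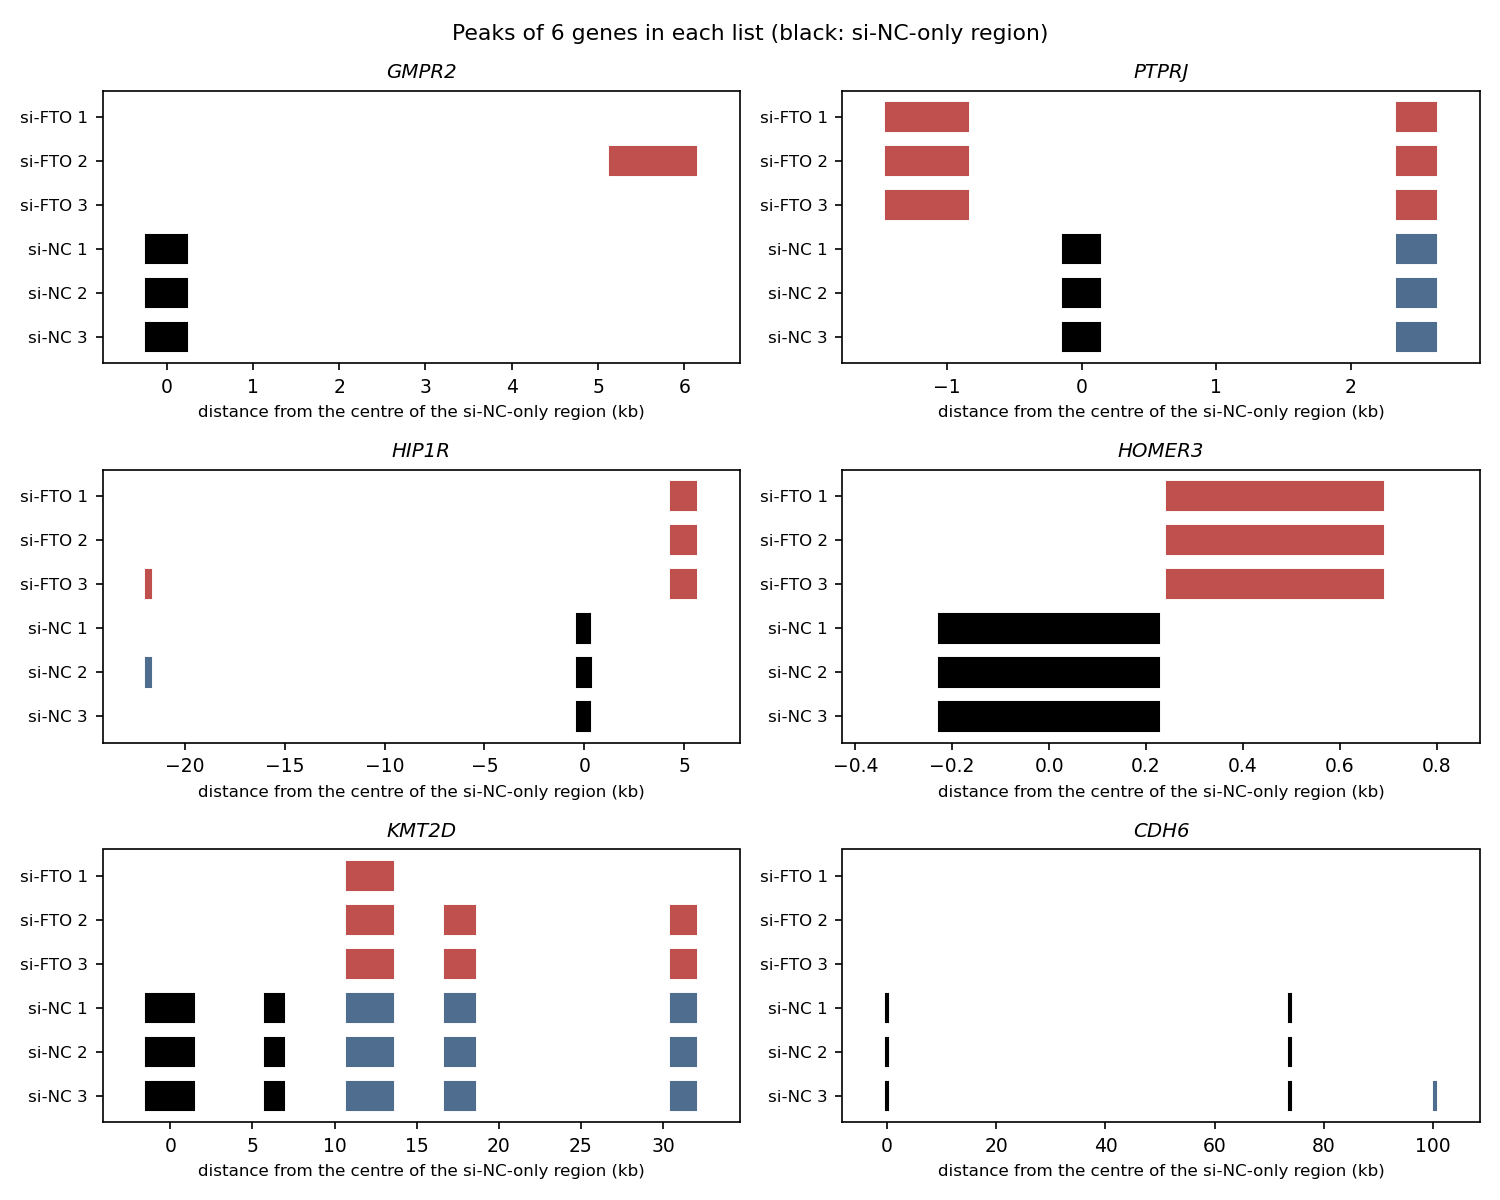
Peaks listed under 6 gene names in each si-FTO list (red) and si-NC list (blue, with the si-NC-only regions in black), drawn to scale by distance in kb from the centre of the highest ranked si-NC-only region. PTPRJ and KMT2D kept peaks elsewhere in the si-FTO lists, CDH6 had none, and in HOMER3 the peaks of both groups lay side by side, 16 bp apart.

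The nearest si-FTO peak of the same gene usually lay kilobases away on the genome. Distances here are between hg19 positions and count introns, so distances along the mRNA are not known. By the rule no si-FTO peak overlaps these regions, and distances were not taken for regions of other patterns. For the 211 regions whose gene had one, the median distance was 10862 bp (quartiles 3921 and 33253 bp), and 1 region lay within 100 bp, 4 within 500 bp, 11 within 1000 bp and 70 within 5000 bp. When a si-FTO peak under any gene name was allowed, 2 regions lay within 100 bp, 5 within 500 bp, 13 within 1000 bp and 78 within 5000 bp. Of the 5 within 500 bp, 4 were in HOMER3, AGO4, FNDC3A and EPHB2.

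In HOMER3 the peaks of both groups lay side by side. Its si-NC peak had fold enrichments of 16.0, 19.2 and 16.5, and 16 bp further, at chr19:19051130-19051575, the si-FTO lists had 10.6, 18.5 and 19.4. Their within-list percentiles of 78.1, 94.5 and 94.7 in si-FTO, against 91.96, 94.7 and 93.3 in si-NC, show that the groups overlapped in rank. The listed intervals differed in place, and whether they are parts of a single enriched stretch was not tested. In PTPRJ, a receptor tyrosine phosphatase, the si-FTO peak at chr11:48157243-48157848 had 5.91, 5.94 and 5.82, and the si-NC peak 706 bp away at chr11:48158555-48158833 had 5.41, 5.08 and 5.38. PTPRJ also kept a region of all 6 lists, at percentiles of 83.4, 88.1 and 83.7 in si-FTO, against 84.3, 86.2 and 82.96 in si-NC.

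ID4, an inhibitor of helix-loop-helix transcription factors, had 13.4, 11.8 and 8.78 in the si-FTO lists from position 19839441 of chromosome 6. In the si-NC lists it had 13.7, 10.3 and 14.4 at chr6:19837601-19838426, 1014 bp away. HIP1R had 12.5, 14.0 and 16.0 in si-FTO at chr12:123346253-123347507, against 20.4, 17.2 and 19.8 in si-NC at a place 3990 bp away. PCNT, the centrosome protein pericentrin, ADIPOR1, an adiponectin receptor, PLXNA1 and ZFP64 also held both patterns, at distances of 4706, 7020, 9926 and 31216 bp. Of the 416 regions, 3 lay within 1000 bp of a region with the mirror pattern.

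Among the genes with the most si-FTO regions elsewhere were 5 with 1 si-NC-only region each. MACF1, which links microtubules to actin, had si-FTO peaks in 14 other regions, and PCNT in 12. The atypical cadherin FAT1 had 8, and the histone methyltransferase KMT2C and RBM33 had 6 each. Their si-NC-only regions were 228 to 469 bp long and ranked in the middle, with lowest percentiles between 27.3 and 35.1.

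In 13 genes 2 si-NC-only regions were found, and no gene had more. BCL2, the founding inhibitor of apoptosis in its family, had one of 2383 bp at chr18:60793610-60795992 (7.69, 7.24 and 8.86) and another of 2045 bp at chr18:60985315-60987359 (5.99, 8.93 and 8.76), and had no si-FTO peak. HDAC2, a histone deacetylase, had 6.07, 6.40 and 6.68 at chr6:114261823-114262252 and 6.73, 5.16 and 7.49 at chr6:114292021-114292359, and likewise no si-FTO peak. FBXL14, an F-box adaptor, was the strongest pair, with 11.0, 12.6 and 12.1 at chr12:1702039-1703331 and 12.4, 10.3 and 11.3 at chr12:1675159-1675976. The netrin receptor UNC5B had 9.73, 11.1 and 11.1 at chr10:72972292-72972821 and 8.88, 11.98 and 15.4 at chr10:73039578-73039802.

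CDH6 and NUTM2A, both in the first 12, had a second and weaker region, with lowest percentiles of 26.9 each. MYRF, a membrane-bound transcription factor, CROCC, which encodes the rootlet protein of cilia, and PPP1R12B, a subunit of myosin phosphatase, had 2 regions and no si-FTO peak. KMT2D kept peaks in all 3 si-FTO lists, as did PHF2, a histone demethylase of the PHD finger family. SEC31A, a coat protein of vesicles leaving the endoplasmic reticulum, had 1 peak elsewhere, in si-FTO replicate 3 and in no si-NC list. Across these 13 genes, both strong and weak pairs occurred.

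Groups of genes were compared by counts beside the 5.30% of all genes with a peak. Of 16 genes with a peak among m6A writers, erasers and readers, none had a si-NC-only region. The same was true of 6 glucose transporters, 15 genes of IL6, JAK and STAT signaling, 14 of the Notch pathway and 17 of the genes named in the text of the study. The Jak-STAT annotation deposited with the peaks covers other genes and gave another count. There 4 of 43 genes (9.30%) had a si-NC-only region, CTF1, BCL2, IL20RB and EPOR, beside 5.28% of all annotated genes. Of glycolysis and lactate genes, 1 of 11 had one, GPI, the glucose phosphate isomerase, with weak values of 5.37, 3.45 and 3.97 at chr19:34856139-34856674. Among thyroid, epithelial, and blood, endothelial and fibroblast lineage markers, 5, 3 and 3 genes had a peak and none had a si-NC-only region. Since mRNA levels are not in these lists, such markers do not check the identity of the cells.

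Splicing genes had 5 of 30 (16.7%). They were the kinase CLK3 (17.2, 12 and 11.0 at chr15:74907481-74908239), the branch point and spliceosome factors SF3A2, SF1 and SF3B1, and the regulator MBNL2. SF1 and SF3B1 kept a region of all 6 lists. For SF1 that region lay at percentiles of 82.4, 86.9 and 91.6 in si-FTO, against 93.2, 94.0 and 93.1 in si-NC, lower in si-FTO without overlap. For SF3B1 it lay at 57.9, 53.4 and 49.7 in si-FTO, against 49.9, 11.4 and 18.0 in si-NC, and the groups overlapped, with a mean 27.3 points higher in si-FTO. The histone methyltransferase and demethylase list had 4 of 47 (8.51%), namely PHF2, KMT2D, KMT2C and KDM5C.

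Signaling lists had few members each. The Hippo pathway had 3 of 18 (16.7%), with its transcription factor TEAD4 (5.61, 5.89 and 8.67), FAT1 and WWC1. By the larger annotation deposited with the peaks, Hippo signaling had 5 of 76 (6.58%), near the 5.28% of all annotated genes. MAPK signaling had 2 of 37 (5.41%), the kinases MAPK11 and ARAF. Receptor tyrosine kinases had 2 of 14, both ephrin receptors, and EPHB2 was the stronger with 9.40, 11.4 and 10.3. Wnt and TGF-beta lists had 1 each, TCF7L1 of 27 and ID4 of 34. The hypoxia list had 2 of 12, the carbonic anhydrase CA12 (7.62, 7.71 and 8.66) and the ubiquitin ligase subunit VHL (6.61, 5.94 and 4.96), and neither had a si-FTO peak. Counts as small as these are a description of which genes were present, not a measure of a pathway.

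Matrix and adhesion genes had 3 of 28, the collagens COL18A1 and COL5A1 and the integrin-linked adaptor PARVA. Cadherins had 2 of 16, CDH6 and FAT1. The lipoprotein receptor LRP1 was the 1 member of 9 in the apolipoprotein list. E2F8 was the 1 member of 26 cell cycle genes, EIF2S1 of 21 ribosomal protein and translation factor genes, and OAZ2 of 5 polyamine genes. BCL2 was the 1 member of 19 apoptosis genes and HDAC2 of 18 deacetylases and acetyltransferases. The immune checkpoint and antigen presentation list had 2 of 9, PDCD1LG2 and NLRC5, a transactivator of antigen presentation genes.

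Gene families named by their symbols ranged more widely. F-box and Kelch or BTB adaptors of ubiquitin ligases had 10 of 72 (13.9%), led by FBXL14, FBXO28 (11.2, 9.80 and 11.4), FBXO27 and KBTBD8. Solute carriers had 8 of 99 (8.08%), led by SLC45A4 (12.4, 14.97 and 11.5) and SLC25A36 (12.1, 8.35 and 11.1). RING and TRIM ligases had 6 of 73 (8.22%), homeobox genes 3 of 31 (LHX1, SIX5 and MSX1) and forkhead factors 2 of 21 (FOXK1 and FOXP1). Genes named GPR had 3 of 25 (GPR135, GPR89C and GPR65). RAB GTPases and their TBC regulators had 3 of 59 (RAB36, TBC1D1 and RAB3GAP1), TMEM genes 2 of 58 (TMEM201 and TMEM261), and 1 each was found in 36 ubiquitin-specific proteases (USP49), 18 KLF and SP factors (SP2) and 66 CCDC genes (CCDC92). Zinc finger ZNF genes, the largest family with 337 genes, had 4 (1.19%), namely ZNF83, ZNF232, ZNF592 and ZNF486. GPR89C has a near-identical copy, and its values are uncertain.

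By the pathway annotation that the authors deposited with the peaks, 126 of 2388 annotated genes (5.28%) had a si-NC-only region. The annotations with the largest counts were MAPK signaling (8 of 120) and pathways in cancer (8 of 118), followed by axon guidance (6 of 67), spliceosome (6 of 66), HTLV-I infection (6 of 73) and endocytosis (6 of 120). Axon guidance brought together the receptors UNC5B, EPHB2, EPHA4 and PLXNA1, the semaphorin SEMA4D and the transcription factor NFATC4. No set test was made, and genes with many or long transcripts have more places where a region can be found.

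The regions were spread over the chromosomes. Chromosome 1 held 46 of them and chromosome 19 held 38, or 3.41% and 4.30% of all merged regions there. The share ranged between 4.79% on chromosome 21 (7 of 146) and 1.56% on X (7 of 450), with none among 28 regions of Y. An mRNA of RefSeq was the assigned transcript for 78.6% of the regions, against 82.5% of all listed peaks.

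Whether the remaining m6A peaks of these genes differed between the groups was tested on regions the rule did not use. The genes themselves were chosen by the rule, and regions of a gene share its mRNA. Neither this comparison nor the next is therefore independent of that choice. For each list, the percent of the 404 genes with a peak in a region of neither one-group pattern was counted. A gene with peaks in one-group regions alone, such as HOMER3, counted as having none in any list. The percent was then compared between the groups. This percent was 40.8%, 43.3% and 42.8% in the si-FTO lists, against 45.8%, 49.5% and 49.3% in the si-NC lists. The ranges did not overlap, and the si-FTO mean of 42.3% ± 1.31 stood against a si-NC mean of 48.2% ± 2.08 (SD, n = 3 each). The difference was -5.86 percentage points (p = 0.1 in a two-sided exact permutation test, which cannot give a smaller p with 3 libraries in each group). Over the 7219 other genes the percentages were 68.1, 72.5 and 70.7 in si-FTO, against 72.5, 72.4 and 76.9 in si-NC, a difference of -3.50 points (exact permutation test, p = 0.2). Whether the genes with a si-NC-only region differed from the other genes in this was not tested, so no difference between these groups of genes is stated.

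The rank of the peaks that all 6 lists shared was compared in the same way. Genes with a si-NC-only region held 190 regions of all 6 lists, in 129 genes. Their median within-list percentile of fold enrichment was 59.6, 66.6 and 66.8 in the si-FTO lists, against 69.3, 65.6 and 68.9 in the si-NC lists. The groups overlapped, since si-NC replicate 2 lay below si-FTO replicates 2 and 3. The difference was -3.58 percentile points (64.3 ± 4.11 in si-FTO and 67.9 ± 2.03 in si-NC, SD, n = 3 each, exact permutation test, p = 0.3). It was positive, at 1.15 points, when the weakest peaks of each list by fold enrichment were dropped, so that 75 percent remained. The 4547 other regions of all 6 lists had means of 64.5 in si-FTO and 64.2 in si-NC, a difference of 0.33 points (p = 0.6 by the exact test).

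Single shared regions of these genes went both ways. Of the 190, 32 (16.8%) had every si-FTO percentile below every si-NC percentile, beside 14.6% of all 4737 regions, and 30 (15.8%) had every si-FTO percentile above, beside 16.9%. Both shares were near the background. ZNF83 was among the lower ones, with percentiles of 14.0, 41.5 and 19.0 in si-FTO, against 66.7, 74.9 and 66.4 in si-NC at chr19:53115618-53118050. KBTBD8 had 36.7, 42.7 and 32.7 in si-FTO, against 69.4, 61.0 and 89.9 in si-NC at chr3:67053619-67054733. Among the higher ones, chosen after their values were seen, MYO5A, a myosin motor of vesicle transport, had 68.96, 71.7 and 72.6 in si-FTO, against 28.1, 8.97 and 45.4 in si-NC at chr15:52643451-52643678. PSIP1, a chromatin-binding coactivator, had 93.1, 87.1 and 98.8 in si-FTO, against 69.6, 36.7 and 65.7 in si-NC at chr9:15470634-15471309. Its other shared region, at chr9:15474007-15474235, ranked higher and the groups overlapped there. That region had 99.6, 99.2 and 99.5 in si-FTO, against 99.5, 99.4 and 99.6 in si-NC.

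**Figure D5:**
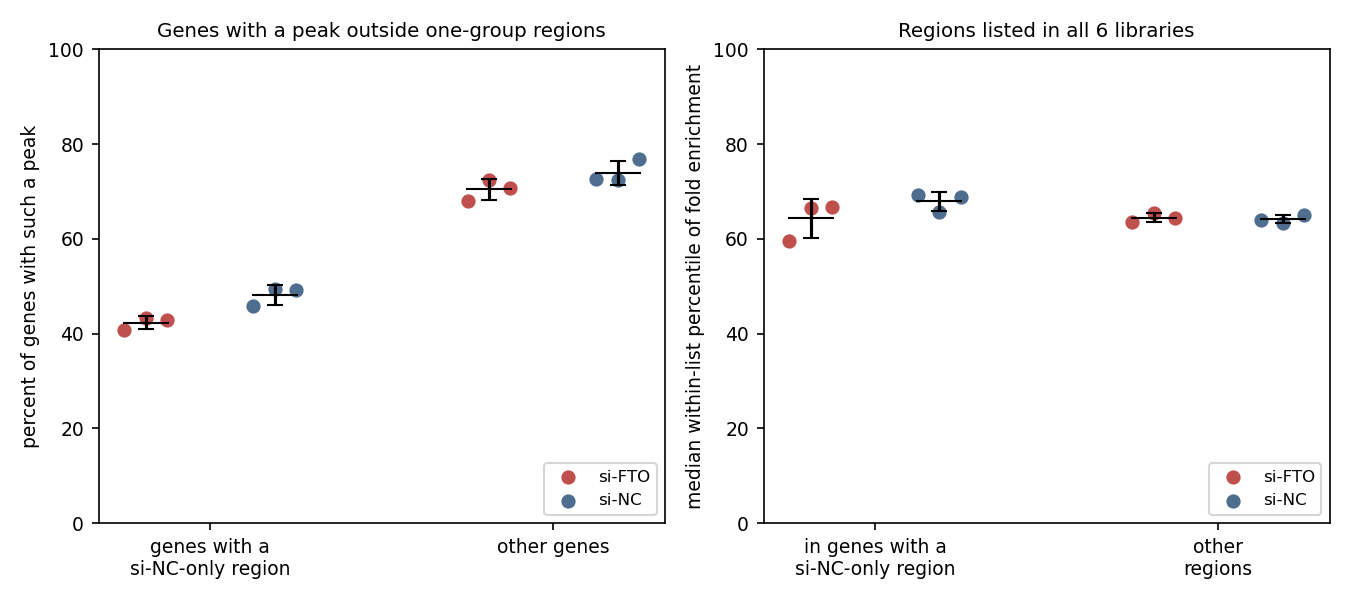
Left, percent of genes with a peak outside regions of either one-group pattern in each si-FTO list (red) and si-NC list (blue), for the 404 genes with a si-NC-only region and the 7219 other genes. Right, median within-list percentile of fold enrichment of the regions in all 6 lists, in those genes and elsewhere, with points for lists and black bars for the mean ± SD (n = 3). On the left the 404 genes lie at 40.8% to 43.3% in si-FTO and 45.8% to 49.5% in si-NC, and on the right the groups overlap. Of the 404 genes, 152 had no listed region other than si-NC-only ones, so the count holds none of them in any list.

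The regions themselves depended on how strong a peak had to be. With the upper 75 percent of each list by fold enrichment, 382 regions had the pattern and they overlapped 226 of the 416 (54.3%). At a score of at least 100 there were 353 regions, and 207 of the 416 (49.8%) were found again. When every list was cut to the 7921 peaks of the shortest one by score, 349 regions remained and 309 of the 416 (74.3%) were among them. Leaving out a library loosens the rule, and the count was 648 without si-NC replicate 1 and 666 without si-NC replicate 2.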

How the data were processed

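MeRIP-seq was performed by the study on K1 cells with 3 IP and 3 input libraries each for si-FTO and si-NC. For every IP library the authors deposited 1 list of peaks over input, positioned on hg19. CASAVA 1.8 and BWA appear in the submitters' processing notes and MACS in the peak identifiers; the caller's settings are not stated. Each list holds, as deposited, a score (-10 times the log10 of the p-value), the authors' fold enrichment, which is a ratio of IP over input, and an FDR in percent. 1 emptied line per list was not analysed. Starts count from 0 in the lists and from 1 here.

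Lists were read through a table of columns, and no column belonged to another sample. Peaks were merged with Python 3.11.15, pandas 2.3.3 and numpy 2.4.6 (matplotlib 3.10.9 for figures). Where a list had 2 peaks in a region, the higher fold enrichment was used. Merging and tests were tested on simulated lists. An exact permutation test, two-sided, was used to compare libraries of the groups.

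The members and gene lists were chosen with earlier results of these data known. The genes named are those of the 12 highest and 3 lowest ranked regions, the 5 longest and 5 shortest, up to 4 genes of each of 27 lists and 12 families, genes with 2 regions, up to 8 genes with both patterns, the 6 with the most si-FTO regions elsewhere, and members of counts of 5 or fewer. MBNL2, AGO4 and FNDC3A fall under counts of 5. Genes of pathway annotations were named after their values were seen. Some genes that this rule takes in are not reported here. Gene names are those of the lists. Of the 404 names, 379 are current RefSeq symbols (GRCh38.p14), 22 matched through a synonym and 3 did not match. No hg19 genome or annotation was used here, so the place of regions in exons, introns or UTRs and their sequences were not analysed here.

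Same-numbered si-FTO and si-NC libraries did not deviate together (correlations over 4737 regions of 0.03, 0.07 and -0.06), so the numbers were not taken to pair them. Alternatives were each replicate left out, other overlaps and merging, stricter peaks, equal list length, a looser presence rule, transcripts in place of genes, the score, and the replicate block.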

Additional observations from a re-analysis of the deposited data

How the results depend on the processing

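The 416 regions and 404 genes became 525 to 666 and 510 to 636 when 1 library was left out, which loosens the rule; without si-NC replicate 1 they were 648 and 621, and without si-NC replicate 2, 666 and 636. With at least 2 of 3 si-NC lists they were 1038 and 970, with a median lowest percentile of 22.9. Other settings gave 349 to 420 regions. The percent of genes with a si-FTO peak elsewhere was 47.8 to 52.0 with a library left out, 41.98 with the upper 75 percent of fold enrichment and 33.7 when the same transcript was required. Median length was 586.5 to 678 bp with a library left out, 694.5 bp with the upper 75 percent and 542 bp without chaining of peaks. The median lowest percentile was 27.2 to 29.2 with a library left out and 33.6 at equal list length.

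The difference in other peaks of the same genes was -7.05 to -5.12 points with a library left out and -4.01 with the upper 75 percent. That in shared regions was -4.82 to -1.21 points with a library left out, -3.28 by score percentile and 1.15, the opposite sign, with the upper 75 percent, where the cause was not tested. With the replicate block the differences were the same, -5.86 and -3.58 points, with exact sign-flip p of 0.25, the smallest for 3 pairs, and 0.5. Unknown depth limits every absence stated from a list.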

Other observations

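Among 177 cellular component annotations with at least 20 genes with a peak, the share of genes with a si-NC-only region was highest for the Z disc, the boundary of the muscle sarcomere, with 10 of 41 genes (24.4%), beside 5.30% of all genes with a peak. The terms given here are some of those with high shares and were chosen after their values were seen. FHOD3, an actin assembly factor, JPH1, a junctional membrane protein, and NOS1, a nitric oxide synthase, ranked first among the Z disc genes, and PALLD, PARVA, PPP1R12B, SCN8A, PSEN2 and FKBP1A were others. The lysosomal lumen followed with 5 of 29 genes (17.2%), the hydrolases CTSL, ARSA, SMPD1 and IDUA and the proteoglycan CSPG4. The endocytic vesicle membrane had 4 of 24 (16.7%), AP2A1, CACNG8, LRP1 and DNM2. The complex of CUL3 with RING ligases had 5 of 33 (15.2%), the substrate adaptors KBTBD8, KLHL28, KEAP1, KLHL17 and KCTD17. No test was made of these shares.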
